A study of Mus musculus with 6 samples.

Results

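The 36 genes described here encode the heat shock proteins of the cytosol, the chaperones of mitochondria, and the chaperones, folding enzymes, stress sensors and stress-induced transcription factors of the endoplasmic reticulum (ER). They were taken by gene name from a list that was chosen with earlier results of these data known. Each gene has 1 probe: the detected probe with the highest mean over the arrays. Of the 36, 33 had at least 1 probe and 28 passed the detection filter, out of 9000 genes tested in all. Hsf1, Hsp90ab1 and Dnajb11 had no probe under these names and were not analysed here. Dnaja1, Hspb1 and Canx were detected on 0 of 6 arrays, Manf on 1 and Atf6 on 2 wild type arrays, so these 5 were not tested.

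RNA came from lineage-negative, Kit-positive (LK) cells, a bone marrow fraction rich in blood progenitors, sorted from mice aged 3 months. One group was transgenic for NHD13, a fusion of the nucleoporin gene Nup98 with the homeobox gene Hoxd13 that is known from human myelodysplastic syndrome and leukaemia and that the Vav1 promoter drives in blood cells in the published mouse line. The other group was their wild type littermates. Each genotype had 3 bead arrays and each array a pool of 3 mice, so the spread between arrays is a spread between pools. Arrays of both genotypes are numbered 1 to 3, and what equal numbers have in common is not stated. No strain is named for either group.

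Heat shock proteins bind unfolded proteins in the cytosol, and Hsf1 induces them when such proteins accumulate, as in heated or otherwise damaged cells. The ER has its own chaperones, which fold proteins bound for secretion, granules and the cell surface. When their capacity is exceeded, the sensors Ern1 (IRE1), Atf6 and Eif2ak3 (PERK) start the unfolded protein response, in which Xbp1, Atf6 and Atf4 switch on chaperones and, under lasting stress, Ddit3 (CHOP). Myeloid progenitors make large amounts of granule protein through the ER.

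None of the 28 tested genes passed the threshold of an adjusted p under 0.05 (limma), against 0.556% of all tested genes. By the 1 probe per gene, none had an unadjusted p under 0.05 either, as 690 of the 9000 did, and adjusted p-values ran from 0.65 to 0.99. A second, dimmer Creld2 probe, outside this count, had a lower adjusted p of 0.38. A fit with the array number as a block was also run, since same-numbered arrays deviated together (correlations of 0.19, 0.67 and 0.54). That of number 1 is under the highest value of different numbers, 0.24. With this block again none passed (0.622% of all genes did), with adjusted p-values from 0.23 to 0.99. In it 7 of the 28 and 1501 of the 9000 had an unadjusted p under 0.05. The 7 were 5 of 13 ER folding genes and 2 of 5 ER stress sensors and factors, with 0 cytosolic and 0 mitochondrial genes. The 13 tested ER folding genes of the list, among which Herpud1 of ER degradation is counted, all measured lower in NHD13 cells, with none past the threshold. So did 45.9% of all tested genes and 10 of 19 tested ER folding enzymes outside the list. Higher in NHD13 cells were 4 of 7 cytosolic and 3 of 3 mitochondrial genes, as were 4870 of the 9000, again with none past the threshold. The widest spread belonged to the inducible Hsp70 genes, and it ran between array numbers, not between genotypes.

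**Figure D1:**
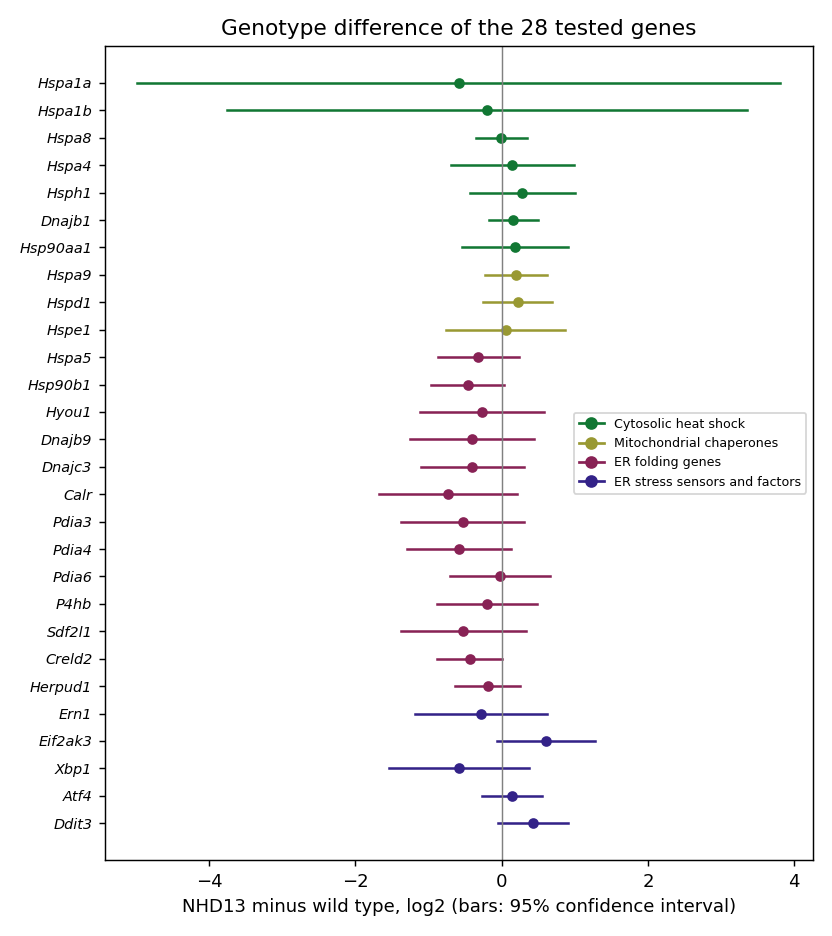
Difference between genotypes (NHD13 minus wild type, normalized log2 intensity) of the 28 tested genes, points for the fitted difference and bars for its 95% confidence interval, coloured by gene group. All 28 intervals include 0, all 13 ER folding genes lie left of it, and the intervals of Hspa1a and Hspa1b are the widest.

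In the cytosol, 7 of 11 genes were tested, 4 above 0 and 3 below, with a median difference of 0.15 in log2 against 0.031 over all tested genes. That median had no steady sign: it was -0.0023 without NHD13 replicate 1 and -0.11 without both arrays numbered 2. Hspa1a and Hspa1b encode the stress-inducible Hsp70, made from a pair of nearly identical neighbouring genes. Hspa1a measured 9.52, 4.57 and 10.67 in log2 in wild type replicates 1 to 3 and 8.36, 4.71 and 9.92 in NHD13 replicates 1 to 3. Both arrays numbered 2 were thus at background, where the lowest detected probe lies between 5.39 and 5.49, while the other 4 arrays were far above it. On the deposited scale, before background correction, the same probe read 123 ± 5.04 and 133 ± 5.32 intensity units (standard error over beads) on the arrays numbered 2, and between 440 and 1562 on the others.

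The promoter of Hspa1a is shown for the inducible pair because both genes followed the same course over the arrays. Sequences are those of RefSeq (build GRCm38.p6), and windows of 250 bases before to 50 after the gene start were found for 28 of the 36 genes. These are not the same 28 as the tested genes: Dnaja1, Hspb1, Canx and Dnajb11 have a window but were not tested. The 250 bases before Hspa1a and Hspa1b differ at 3 positions. Capitals mark a pair of inverted heat shock units, GAANNTTC, the letters bound by Hsf1.
Hspa1a, chr17:34972157-34972406, minus strand: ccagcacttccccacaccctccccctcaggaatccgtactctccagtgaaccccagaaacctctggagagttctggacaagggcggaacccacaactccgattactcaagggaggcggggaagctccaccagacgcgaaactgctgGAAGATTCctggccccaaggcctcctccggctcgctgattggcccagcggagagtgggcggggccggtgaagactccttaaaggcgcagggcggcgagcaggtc
The same letters, which read alike on both strands, occur in 5 of the 7 cytosolic genes with a window (Hspa1a, Hspa1b, Hsph1, Dnaja1 and Hspb1). They also occur in the windows of both Hspd1 and Hspe1, and of 9.04% of all 27025 genes with a window. A match is only a match of letters.

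The genotype difference of Hspa1a was -0.59 ± 1.85 (SE, n = 3 against 3, adjusted p = 0.94), with a 95% confidence interval from -4.99 to 3.81. Its standard error fell to 0.27 with the array number as a block (adjusted p = 0.36). Within the numbers 1, 2 and 3 the NHD13 array differed from the wild type array by -1.16, 0.15 and -0.75. The other tested Hspa1a probes, at -0.15 and -0.20, were likewise detected on 2 arrays of each genotype. Hspa1b repeated the pattern, with 8.97, 5.07 and 9.74 in wild type and 8.64, 5.12 and 9.42 in NHD13 cells, and a difference of -0.20 ± 1.5003 (adjusted p = 0.97). A second Hspa1b probe was detected on 0 arrays of either genotype, with values from 4.47 to 5.43, and did not show the pattern. Since the genes are near copies, a probe of one can read the other. Among 9000 genes the spread within genotype (SD) of Hspa1a was 2.97, at rank 2, and that of Hspa1b 2.40, at rank 12, against a median of 0.25.

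**Figure D2:**
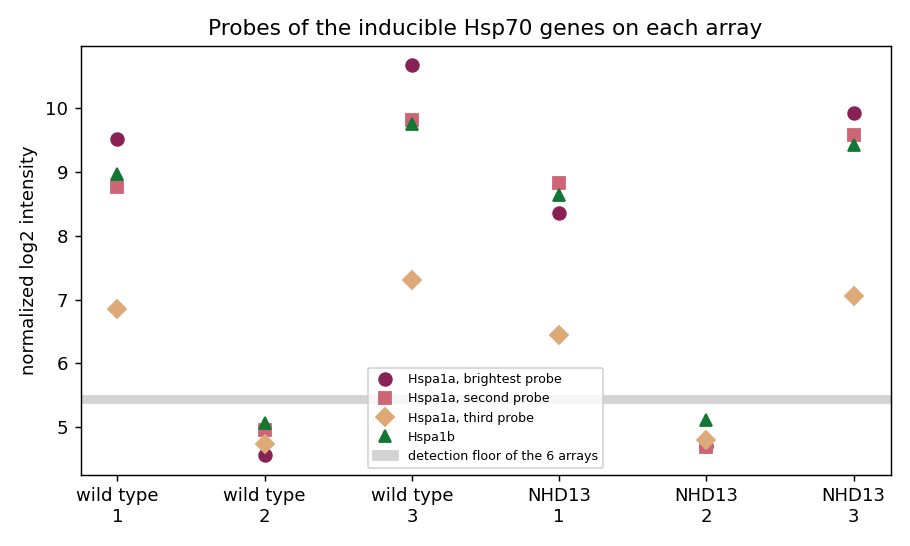
Normalized log2 intensity (vertical axis) of the 3 tested Hspa1a probes and the tested Hspa1b probe on each of the 6 arrays (horizontal axis), with the grey band marking the lowest detected signal, 5.39 to 5.49. All 4 probes lie under the band on wild type 2 and NHD13 2 and above it on the other 4 arrays.

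The arrays numbered 2 also stood apart in genes of mature blood cells. Of 9 late erythroid gene names, which hold Epb42 also under its older name, 4 were tested. Their mean level was 8.65 in wild type replicate 2 and 8.84 in NHD13 replicate 2. On the other arrays it reached 10.69 in wild type and 11.26 in NHD13 cells. Slc4a1, the band 3 anion exchanger of red cells, measured 6.81 and 6.26 on the arrays numbered 2 and between 10.60 and 11.75 elsewhere. Of 9 genes of maturing neutrophils 8 were tested, with a mean level from 7.72 to 11.57 in wild type and from 7.89 to 11.32 in NHD13 cells, lowest on the arrays numbered 2 in both; Mmp8 was not detected. The part of such cells in the Hspa1a pattern was not tested.

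Hspa8 encodes the constitutive Hsp70, Hsc70, which folds proteins without stress. Its values were 14.15, 14.43 and 14.35 in wild type and 14.30, 14.34 and 14.28 in NHD13 cells. The genotypes overlapped fully, and the difference was -0.0050 ± 0.15 with a 95% confidence interval from -0.35 to 0.34 (adjusted p = 0.99). Differences of its other tested probes were 0.04 and 0.06. Unlike the inducible pair, Hspa8 thus showed no drop on the arrays numbered 2.

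The J-domain protein Dnajb1, which hands clients to Hsp70, measured 12.07, 12.09 and 12.13 in wild type and 12.26, 12.14 and 12.36 in NHD13 cells. All 3 NHD13 values lay above the wild type values, by 0.16 ± 0.14 on average (adjusted p = 0.79). Only 2 of the 28 genes, Dnajb1 and the ER gene Creld2, had genotypes that did not overlap, against 12.5% of all tested genes. Hsph1 and Hspa4, which encode Hsp110 proteins that recycle Hsp70, measured 0.28 ± 0.30 and 0.15 ± 0.36 (adjusted p = 0.81 and 0.91). The stress-responsive Hsp90 gene Hsp90aa1 measured 10.49, 10.14 and 9.92 in wild type and 10.38, 10.91 and 9.80 in NHD13 cells, a difference of 0.18 ± 0.30 (adjusted p = 0.87). It was highest on NHD13 replicate 2, where Hspa1a was at background, and without that array its difference was -0.088. Its second tested probe differed by 0.63 ± 0.41.

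The 3 mitochondrial chaperone genes lay above 0, with a median of 0.19. Hspa9 (mortalin), which pulls proteins into the matrix, measured 13.52, 13.75 and 13.40 in wild type and 13.74, 13.96 and 13.55 in NHD13 cells, a difference of 0.19 ± 0.18 (adjusted p = 0.79). Its NHD13 value was the higher within each array number, by 0.15 to 0.22, though the genotypes overlapped. Hspd1 and Hspe1 encode Hsp60 and its lid Hsp10, which form 1 folding chamber. Hspd1 differed by 0.22 ± 0.20 (adjusted p = 0.79) and Hspe1 by 0.054 ± 0.34 (adjusted p = 0.97). Hspe1 was lowest on wild type replicate 3, at 8.57, and between 9.02 and 9.73 on the others. Both genes share 1 short stretch between their starts, shown because it holds a run of inverted heat shock units with 2 overlapping matches to the 3-unit letters GAANNTTCNNGAA. Capitals mark the match on the printed strand, and the other begins at the ttc just before them. The 3-unit letters occur on either strand in 0.662% of all genes with a window, among them Hspd1, Hspe1 and Hsph1.
Hspe1, chr1:55088044-55088096, plus strand: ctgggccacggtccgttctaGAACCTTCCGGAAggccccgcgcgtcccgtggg

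Among the ER folding genes of the list, 13 of 16 were tested, and all 13 lay below 0. So did 45.9% of all tested genes and 10 of 19 tested ER folding enzymes outside the list. With no detection filter, 14 of 15 lay below 0, Manf being the exception. The list was chosen with earlier results of these data known. The median difference of the 13 was -0.41 in log2, against 0.031 over all tested genes, and they ranged from -0.73 for Calr to -0.025 for Pdia6. NHD13 replicate 2 was the lowest of the 6 arrays for 12 of the 13, as for 21.1% of all tested genes, and wild type replicate 1 was the highest for 8. Within the array numbers, 7 of the 13 were lower in NHD13 in all 3 (18.6% of all genes) and 0 were higher in all 3 (24% of all genes). The median within the numbers 1, 2 and 3 was -0.63, -0.45 and -0.073. Without NHD13 replicate 2 the median of the 13 was -0.15, with 12 below 0, and with both arrays numbered 2 left out, a choice made once the values were known, it was -0.40. Fewer cells of a kind rich in ER and less RNA per cell cannot be told apart in such bulk samples.

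**Figure D3:**
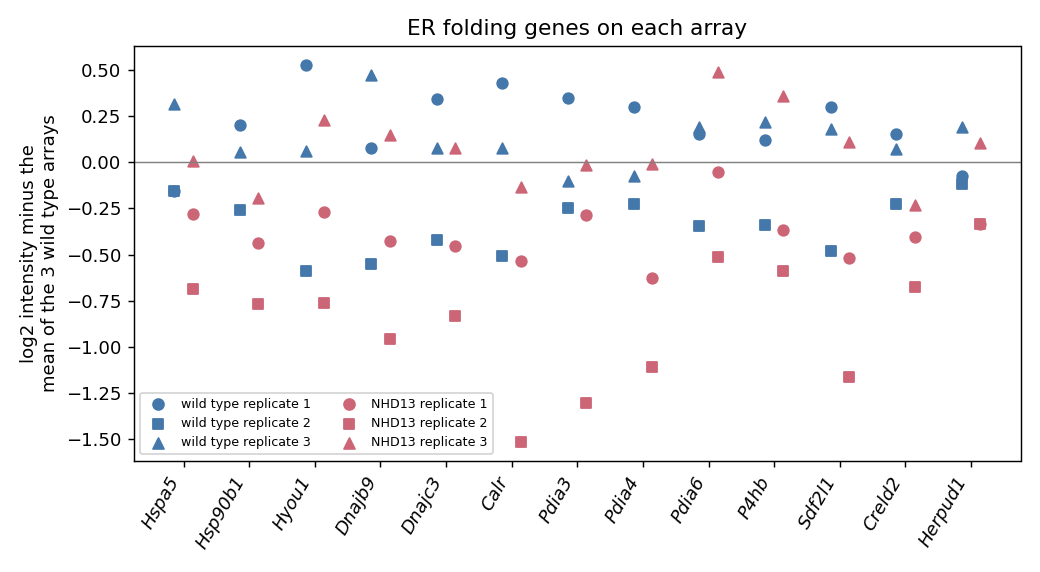
Each array's log2 intensity minus the mean of the 3 wild type arrays (vertical axis) for the 13 tested ER folding genes (horizontal axis); blue points are wild type, red points NHD13, and circles, squares and triangles replicates 1, 2 and 3. NHD13 replicate 2 (red squares) is the lowest for 12 genes, and NHD13 replicate 3 (red triangles) lies among the wild type points for most.

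Promoters of the ER genes are shown because these genes followed a like course over the arrays. The ER stress response element, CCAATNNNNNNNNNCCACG, is bound by NF-Y together with Atf6 or Xbp1. Searched on both strands, it occurred in 7 of the 19 ER genes with a window (Hspa5, Hsp90b1, Dnajc3, Calr, Canx, Pdia6 and Creld2). It occurred in 0 of the 7 cytosolic genes with a window and in 37 of 27025 genes in all, or 0.137%. Of the 6 tested genes with it the differences ran from -0.73 for Calr to -0.025 for Pdia6, so genes with the element spanned the whole range of the 13. Each line gives the element in capitals with 20 bases on either side, read along the gene's strand, and an element on the other strand begins with CGTGG.
Hspa5, chr2:34772005-34772063, plus strand: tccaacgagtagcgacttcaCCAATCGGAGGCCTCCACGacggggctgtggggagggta
Hsp90b1, first element, chr10:86705618-86705676, minus strand: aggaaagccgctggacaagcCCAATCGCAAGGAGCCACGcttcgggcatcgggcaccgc
Hsp90b1, second element, chr10:86705513-86705571, minus strand: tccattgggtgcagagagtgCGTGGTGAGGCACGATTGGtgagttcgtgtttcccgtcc
Dnajc3, chr14:118937807-118937865, plus strand: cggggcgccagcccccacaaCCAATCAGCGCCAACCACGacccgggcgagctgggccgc
Calr, chr8:84847055-84847113, minus strand: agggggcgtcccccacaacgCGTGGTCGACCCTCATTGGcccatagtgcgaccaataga
Pdia6, chr12:17266471-17266529, plus strand: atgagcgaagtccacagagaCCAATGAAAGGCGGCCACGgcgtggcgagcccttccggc
Creld2, chr15:88819500-88819558, plus strand: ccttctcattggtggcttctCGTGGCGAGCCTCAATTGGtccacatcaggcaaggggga
Herpud1 had the second form of the element, ATTGGNCCACG, which only 0.0444% of all genes with a window hold, and is shown for comparison. It also had the ATF4-type letters TGATGCAA, found in 1.03% of all genes.
Herpud1, chr8:94386357-94386407, plus strand: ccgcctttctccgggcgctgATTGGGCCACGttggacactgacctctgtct

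Hsp90b1 encodes GRP94, the Hsp90 of the ER, which folds integrins and Toll-like receptors. It measured 12.25, 11.79 and 12.11 in wild type and 11.61, 11.28 and 11.85 in NHD13 cells. NHD13 replicate 3 overlapped the wild type range, and the difference was -0.47 ± 0.21, or 1.38-fold lower (adjusted p = 0.66; 0.25 with the block). Hspa5 encodes BiP, the main Hsp70 of the ER, but its only probe lay near background, above background on 1 NHD13 array and on 2 of the wild type, with a difference of -0.32 ± 0.24. Hyou1, the exchange factor of BiP, was close to background too and differed by -0.27 ± 0.36.

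The lectin chaperone calreticulin, which holds glycoproteins and calcium in the ER, had the largest difference of the 13. Calr measured 11.31, 10.38 and 10.97 in wild type and 10.35, 9.37 and 10.75 in NHD13 cells. The genotypes overlapped, but each NHD13 value was below the wild type value of its number, with differences of -0.96, -1.01 and -0.21. The fitted difference was -0.73 ± 0.40, or 1.66-fold lower, with a 95% confidence interval from -1.67 to 0.22 (adjusted p = 0.70; 0.23 with the block). Without NHD13 replicate 2 it was -0.34, and without NHD13 replicate 3 it was -1.03.

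Protein disulphide isomerases, which form and shuffle disulphide bonds, were all 4 below 0. Pdia4 measured 10.95, 10.42 and 10.57 in wild type and 10.02, 9.54 and 10.64 in NHD13 cells, a difference of -0.58 ± 0.30 (adjusted p = 0.69). NHD13 replicates 1 and 2 were below every wild type value and replicate 3 was within them. Pdia3, the partner of calreticulin, followed the same course, with -0.53 ± 0.35 (adjusted p = 0.73). With NHD13 replicate 2 left out, Pdia4 was -0.32 and Pdia3 -0.15. P4hb and Pdia6 were nearer 0, at -0.20 ± 0.29 and -0.025 ± 0.29, and a second, dimmer Pdia6 probe gave -0.53 ± 0.33.

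The tested genes of small stress-induced ER proteins lay on the same side. Manf, detected on 1 NHD13 array only and so not tested, lay at 0.33. Creld2, a disulphide isomerase-like protein induced by ER stress, measured 10.62, 10.24 and 10.53 in wild type and 10.06, 9.79 and 10.23 in NHD13 cells. These ranges did not overlap, with NHD13 replicate 3 just under wild type replicate 2, and the difference was -0.44 ± 0.19 (adjusted p = 0.65; 0.24 with the block). A second Creld2 probe gave -0.63 ± 0.17 (adjusted p = 0.38). Sdf2l1, which works with BiP, differed by -0.52 ± 0.36 (adjusted p = 0.73), and by -0.21 without NHD13 replicate 2. The BiP cochaperones Dnajb9 and Dnajc3 differed by -0.41 ± 0.36 and -0.40 ± 0.30, but a dimmer Dnajb9 probe, detected on 4 arrays, lay at 0.37 ± 0.29. Herpud1, which feeds misfolded proteins to degradation, was the only gene of the 13 not lowest on NHD13 replicate 2, and differed by -0.19 ± 0.19 (adjusted p = 0.80). Its NHD13 replicates 1 and 2 were almost equal, at 11.393 and 11.395. A second Herpud1 probe was lowest on NHD13 replicate 2 and differed by -0.25 ± 0.22.

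Sensors and transcription factors of the unfolded protein response went both ways, with 2 of the 5 tested below 0. Xbp1, the factor that IRE1 activates by splicing its mRNA and a driver of secretory cells, measured 12.13, 11.51 and 12.23 in wild type and 11.28, 10.65 and 12.19 in NHD13 cells. It was lower in NHD13 within every array number, with differences of -0.85, -0.86 and -0.042, and, like most ER folding genes, was lowest on NHD13 replicate 2. Its difference was -0.58 ± 0.40, or 1.498-fold lower (adjusted p = 0.73; 0.29 with the block). Leaving out NHD13 replicate 2 gave -0.22, and leaving out its replicate 3 gave -0.99. The array does not tell spliced from unspliced Xbp1 mRNA. Ern1, the IRE1 sensor itself, differed by -0.29 ± 0.38 (adjusted p = 0.84) and by 0.090 without NHD13 replicate 2.

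The 3 tested members of the PERK arm, Ddit3, Eif2ak3 and Atf4, had fitted differences above 0. Ddit3 (CHOP), which promotes death under lasting stress, measured 8.37, 9.002 and 8.57 in wild type and 9.01, 9.24 and 8.98 in NHD13 cells. NHD13 replicate 3 was just under wild type replicate 2, and the difference was 0.43 ± 0.20, or 1.35-fold higher (adjusted p = 0.67; 0.27 with the block), with 0.13 ± 0.23 from a second probe. Eif2ak3, the PERK kinase, differed by 0.60 ± 0.28 (adjusted p = 0.67), but cleared background on only 3 arrays, 2 of them NHD13. Atf4, the factor that PERK signalling translates, differed by 0.14 ± 0.17 (adjusted p = 0.83), with NHD13 lower within array number 1 (-0.22), and its second probe differed by 0.099.

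The 7 lists of genes that accompany these pathways held 0 genes past limma's threshold, with and without the block. Over all 9000 tested genes 4130 lay below 0 and 4870 above 0, and 690 had an unadjusted p under 0.05. Other cytosolic chaperones and cochaperones lay above 0 in 35 of 42 tested, with a median of 0.14, from -0.40 ± 0.14 for Hsbp1, a negative regulator of Hsf1, to 0.68 ± 0.16 for Dnaja2, a J-domain protein (adjusted p = 0.28), and 3 of the 42 had an unadjusted p under 0.05. All 12 tested genes of mitochondrial folding and proteolysis were above 0 (median 0.17), up to 0.35 ± 0.21 for the protease gene Htra2, with Grpel1 the lowest at 0.018. Other ER folding enzymes were evenly divided, 10 of 19 below 0, with 2 at an unadjusted p under 0.05. Fkbp11, a prolyl isomerase of secretory cells, measured 10.10, 9.13 and 9.54 in wild type and 8.48, 8.22 and 8.80 in NHD13 cells, a difference of -1.09 ± 0.28 (adjusted p = 0.34), and the ranges did not overlap. Pdia2 lay on the other side, at 0.81 ± 0.21 (adjusted p = 0.32).

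ER translocation genes, which carry nascent proteins into the ER, were below 0 in 15 of 19, as were 45.9% of all tested genes. Their median was -0.17, from -0.35 ± 0.18 for Sec61g to 0.30 ± 0.20 for Srp54a. Genes of ER degradation had a median of 0.083 over 14, from -0.42 ± 0.40 for Edem2 to 0.51 ± 0.24 for Ube2g2. The PERK and ATF4 arm with the other eIF2 kinases had a median of 0.031 over 15, from -0.83 ± 0.72 for Vldlr to 1.05 ± 0.37 for the stress factor Nupr1 (adjusted p = 0.55), the 1 gene of this list with an unadjusted p under 0.05. Regulators of the IRE1 and ATF6 arms had a median of -0.0022 over 12, from -0.36 ± 0.16 for Creb3 to 0.22 ± 0.27 for Traf2. No difference between lists was tested.

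Primary granule genes of granulocyte-monocyte progenitors, a list put together once the values were known, followed the ER folding genes over the arrays. Relative to each gene's mean, the median of the 13 ER genes was 0.43, -0.14 and 0.29 in wild type replicates 1 to 3 and -0.20, -0.63 and 0.28 in NHD13 replicates 1 to 3. That of the 14 granule genes, all tested and all below 0 in the genotype difference, was 0.85, -0.43 and 0.87 in wild type and -0.078, -1.93 and 0.96 in NHD13 cells. In both groups of genes NHD13 replicate 2 was lowest and wild type replicate 2 was the lowest of its genotype. The granule list's mean level ran from 11.11 to 12.48 in wild type and from 9.52 to 12.47 in NHD13 cells. None of the 14 had an adjusted or unadjusted p under 0.05 (limma), where 690 of all 9000 tested genes had an unadjusted one. With the block 5 of the 14 had an unadjusted p under 0.05, as did 1501 of the 9000. Of all tested genes 45.9% lay below 0. The part of such progenitors in the ER result was not tested.

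**Figure D4:**
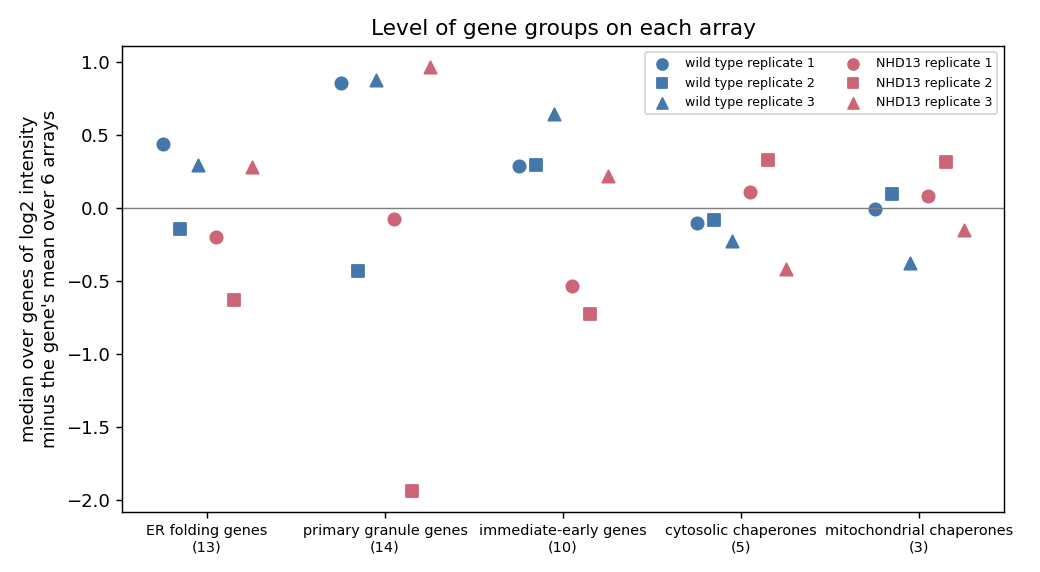
Median over a group's tested genes of log2 intensity minus the gene's mean over the 6 arrays (vertical axis), for 5 gene groups with their numbers of tested genes (horizontal axis), blue for wild type and red for NHD13 arrays. NHD13 replicate 2 is the lowest array for the 13 ER folding genes (-0.63) and the 14 primary granule genes (-1.93), and the highest for the cytosolic chaperones other than Hspa1a and Hspa1b (0.32) and the mitochondrial chaperones (0.31).

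Immediate-early genes, which respond quickly to stimuli, lay lower in NHD13 cells too. Of 15, 10 were tested and all 10 lay below 0 (median -0.86), as did 45.9% of all tested genes. Of these 10, 0 passed limma's threshold, and 4 had an unadjusted p under 0.05 (7 with the block). Over all 9000 tested genes 690 had one, and 1501 with the block. Fos had the largest difference, at -1.56 ± 0.66 (adjusted p = 0.65). The mean level of the 10 ran from 8.49 to 8.91 in wild type and from 7.42 to 8.47 in NHD13 cells, without overlap. By single gene, 12.5% of all tested genes did not overlap. Atf3, Nr4a1 and Btg2 were not detected. The part of immediate-early genes in the results above was not tested. Plasma cells are rich in ER chaperones. Of the B and plasma cell list, which holds Jchain also under its older name Igj, 4 of 12 gene names were tested. All 4 lay below 0 with a median of -0.47, none past limma's threshold. Of the 4, 0 had an unadjusted p under 0.05, and 2 had one with the block. Relative to each gene's mean, the list's median was 0.46, -0.30 and 0.59 in wild type replicates 1 to 3 and -0.39, -0.69 and 0.29 in NHD13 replicates 1 to 3, with the same arrays low as for the ER folding genes. Its mean level ran from 5.99 to 7.25 in wild type and from 5.70 to 6.63 in NHD13 cells. Sdc1, Prdm1, Irf4 and Tnfrsf17 were detected on 0 of 6 arrays, and Jchain on 3, near background. The ER protein gene Mzb1 in it measured -1.31 ± 0.71 (adjusted p = 0.70), and wild type replicates 1 and 3 stood above the other arrays. The part of these cells in the ER result was not tested. Of the T cell list only Cd3e was tested, with Cd3d, Cd4 and Trat1 undetected, and of the macrophage list Vcam1 and Adgre1, with C1qa, C1qb and Cd5l undetected. Among 9 progenitor genes, 8 were tested and 7 lay below 0, with a median of -0.24, 0 past limma's threshold and 1, the stem cell antigen gene Cd34 (-1.73 ± 0.52, adjusted p = 0.46), at an unadjusted p under 0.05. Their mean level, which includes Cd34, ran from 11.12 to 11.30 in wild type and from 10.51 to 11.08 in NHD13 cells, without overlap. The list's median relative to each gene's mean did overlap. It was 0.027, 0.26 and 0.043 in wild type and -0.26, -0.14 and 0.11 in NHD13 replicates 1 to 3. Flt3 was not detected. Kit, by which the cells were sorted, was detected on all 6 arrays between 12.33 and 12.99. The part of a shift among progenitors in the ER result was not tested.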

How the data were processed

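RNA of sorted LK cells was measured on 6 bead arrays. Per the file headers, the deposited table gives each probe's average intensity, bead number, detection p-value and standard error over its beads, and was deposited as not normalized, with no signal below 91.0. The authors also deposited processed intensity values, which reach down to -45.6 and so were background-subtracted. How they were made, and with which scanner software, is not given in the sources used here.

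Intensities were normalized with neqc of limma 3.58.1 in R 4.3.3 (normexp with negative controls inferred from detection p-values, offset 16, quantile normalization, log2). The test covered the 16518 of 45281 probes detected (p-value under 0.05) on 3 or more arrays, with lmFit and eBayes, two-sided, with Benjamini-Hochberg adjustment over all tested probes. Values after ± are standard errors unless stated. Between 15983 and 16836 probes were detected per array, each read from a median of 42 to 43 beads. Their number limits the precision. No 2 arrays were copies. Symbols came from the platform annotation (34885 probes with 1 symbol, 18 with several, 10378 with none), and gene IDs of 34807 were found in RefSeq, which changed 0 symbols. A gene's level was not set against another gene's. The fit was tested on simulated data.

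Same-numbered arrays deviated together from their group means (correlations across probes of 0.19, 0.67 and 0.54, all over 0.1; different numbers between -0.61 and 0.24), so the numbers were read as pairing the samples and a fit with the number as a block was run. The pairing comes from the data, not from the labels, and the 0.19 of number 1 lies within the range of different numbers. Named were all members and, from each accompanying list, any gene past the threshold or else the largest difference on each side; defining genes of the marker lists were named as levels, while Fos, Mzb1, Cd34 and the genes of widest spread were chosen after their values were seen. The members and lists were chosen with earlier results of these data known.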

Additional observations from a re-analysis of the deposited data

How the results depend on the processing

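Under 16 alternatives the 28 tested genes gave 443 values, of which 0 passed the threshold and 420 kept their direction. The 23 that turned belonged to 8 genes whose difference was smaller than its standard error. By setting, Hspa8 was 0.049 with median scaling, 0.030 with the mean of a gene's probes and 0.040 without both arrays numbered 2, which was tried only once the values were known. Without those arrays Hspa4 was -0.11, Hsp90aa1 -0.11, Pdia6 0.045 and the median of the cytosolic genes -0.11. Leaving out 1 array gave -2.43 to 0.89 for Hspa1a, -1.63 to 1.11 for Hspa1b, -0.085 to 0.056 for Hspa8, -0.10 to 0.52 for Hspa4, -0.088 to 0.46 for Hsp90aa1, -0.31 to 0.27 for Hspe1, -0.28 to 0.22 for Pdia6 and -0.62 to 0.090 for Ern1. The median of the cytosolic genes, 0.15, ranged from -0.0023 to 0.24 without 1 array and was -0.0050 with no detection filter. The median of all 18 tested ER genes, sensors included, was -0.36, and ranged from -0.57 to -0.14 without 1 array, the latter without NHD13 replicate 2. With the replicate block the medians stayed at 0.15 and -0.36 and the block changed no call of these genes. Over all genes 50 were called, between 1 (without wild type replicate 1) and 61 without 1 array, 4 with wild type replicate 3 left out, 16 with NHD13 replicate 1 left out and 24 with wild type replicate 2 left out. There were 16 without both arrays numbered 2, 27 without background correction and 6 with detection on all 6 arrays. Hspa5, Hyou1 and Eif2ak3, near background, are limited by their signal. The causes were not tested.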

Other observations

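Among the 25 genes with the widest spread within genotype, a few are named here after their values were seen. Prg2, of eosinophil granules, had the widest spread of 9000 genes (SD 3.56), Hspa1a came next with 2.97, and Camp (2.70), Slc4a1 (2.64), Ngp (2.49) and Ltf (2.40) followed among the first 25 with Hspa1b. Hspa1a and Hspa1b were the only chaperone genes of the 28 in that range, the next being Xbp1, Calr and Ern1 with SDs of 0.61, 0.60 and 0.57. Vcam1, in the macrophage list, measured 6.98, 4.78 and 8.93 in wild type and 5.62, 4.81 and 8.29 in NHD13 cells, lowest on the arrays numbered 2 in both genotypes, as Hspa1a was. Alas2, the red cell enzyme of haem synthesis, measured 5.16 and 5.77 on the arrays numbered 2 and between 6.80 and 7.90 on the others.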
